A study of Homo sapiens with 6 samples.

Results

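The genes described here form the cytosolic DNA sensing pathway in its core: MB21D1 (the older symbol of cGAS), TMEM173 (the older symbol of STING), TBK1, IKBKE, IFI16, AIM2, ZBP1 and TREX1. They were chosen by symbol from the gene table, 8 of 57820 listed genes, and all 8 were among the 15605 genes that passed the filter on low counts and were tested. RNA was sequenced from M14, a human melanoma cell line that stably carries a doxycycline-inducible shRNA against STAG2, a subunit of the cohesin complex that shapes DNA loops. The 3 STAG2-KD libraries came from cells grown with doxycycline for 5 days and the 3 WT libraries from the same cells without it, which the study treats as biologically independent. All 6 cultures carried the hairpin and were kept under puromycin. The model rests on 1 hairpin in a puromycin-selected population, and WT means the uninduced cells, so that an effect of doxycycline itself and of the loss of STAG2 cannot be told apart.

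DNA does not normally lie free in the cytosol, and cells read it as a sign of infection or of damaged nuclei and mitochondria. cGAS binds such DNA and makes the cyclic dinucleotide cGAMP, which binds STING on the endoplasmic reticulum; STING then moves towards the Golgi and recruits the kinase TBK1, and its close relative IKBKE, to phosphorylate IRF3 and start interferon transcription. IFI16 and AIM2 are DNA-binding proteins of the PYHIN family, AIM2 being known for its inflammasome, ZBP1 binds left-handed nucleic acids and can trigger necroptosis, and TREX1 degrades cytosolic DNA and so holds the pathway down. Several of these genes are themselves interferon-stimulated, and STING signaling is often weak or silenced in melanoma lines.

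Libraries held between 24895998 and 35181733 expected counts, and levels are given in CPM, the count divided by the library size after TMM scaling. A floor of 3 counts was worth 0.087 to 0.112 CPM per library, which covers counting error only. WT replicate 1 had the highest mitochondrial share, 5.07% against 2.12% to 2.94% in the others. It also had the most genes above 0, 20646, whereas KD replicate 1 had the fewest, 16028. STAG2 fell in the knockdown, from 66.5, 34.8 and 28.8 CPM in WT replicates 1 to 3 to 16.0, 7.31 and 6.69 CPM in KD replicates 1 to 3 (log2 fold change −2.12, SE 0.43, edgeR adjusted p = 0.0342). All 8 melanocyte and melanoma markers were at 1 CPM or more in each library, but their summed level ran from 1861 to 6311 CPM in WT and from 1195 to 2606 CPM in KD. Replicate 1 stood apart in both conditions. PMEL was at 3370 CPM in WT replicate 1 against 662 and 684 CPM in the other WT libraries. In KD it was at 1254 CPM in replicate 1 against 358 and 364 CPM in replicates 2 and 3. S100B fell (log2 fold change −1.36, edgeR adjusted p = 0.00949), and with the replicate number as a block 6 of the 8 fell. TYR went the other way in the blocked fit without passing (log2 fold change 0.51, edgeR adjusted p = 0.129). COL1A1, 1 of 3 tested fibroblast markers, also fell with the block. None of 3 tested epithelial markers passed in either fit. Among 8 leukocyte markers, CD3E and FCGR3A were listed at 0 in all 6 libraries and PTPRC was above 0 only in WT replicate 3, at 0.583 CPM. The summed leukocyte markers nevertheless ran from 4.23 to 5.93 CPM in WT and from 15.9 to 17.0 CPM in KD, of which ITGAX made up most. ITGAX rose (log2 fold change 2.30, edgeR adjusted p = 0.00832), and passed with the block too (edgeR adjusted p = 0.00179). No other of the 4 tested leukocyte markers passed in either fit. The part of these marker differences in the results below was not tested. In such bulk RNA, fewer cells expressing a gene and less RNA per cell cannot be told apart.

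None of the 8 genes passed an adjusted p of 0.05 in the comparison of KD with WT by edgeR's quasi-likelihood test, where 2.59% of all tested genes did in either direction and 1.75% were higher in KD. At an unadjusted p under 0.05 there were 3 of them, IFI16, TREX1 and ZBP1, all higher in KD, beside 14.8% of all tested genes in either direction. Same-numbered libraries deviated together from their condition means, most clearly in replicate 1 (correlation r of 0.524). For replicates 2 and 3 r was 0.365 and 0.301, not far above the 0.173 and 0.234 across these 2 numbers. The fit was therefore repeated with the replicate number as a block, a pairing that rests on the data and not on the labels. In this blocked fit 2 genes, IFI16 and TREX1, were significantly higher in KD, where 9.52% of all tested genes were called and 5.1% were higher. DESeq2 called the same 2 genes, with 6.27% of all tested genes, and limma-voom called IFI16, with 2.64%. In 4 genes, IFI16, AIM2, ZBP1 and TREX1, every KD library lay above every WT library, and in the other 4 the conditions overlapped. Among all tested genes, 22.3% had no overlap in either direction and 11.8% had each KD library above each WT library. The median log2 fold change of the 8 genes was 0.66, beside a median of −0.03 over all tested genes. It was above 0 in 7 of the 8 genes, beside 7486 of all 15605 tested genes. With 3 libraries against 3, the exact permutation test of a single gene cannot give a two-sided p below 0.1, and it gave this value for each of the 4 genes without overlap.

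**Figure D1:**
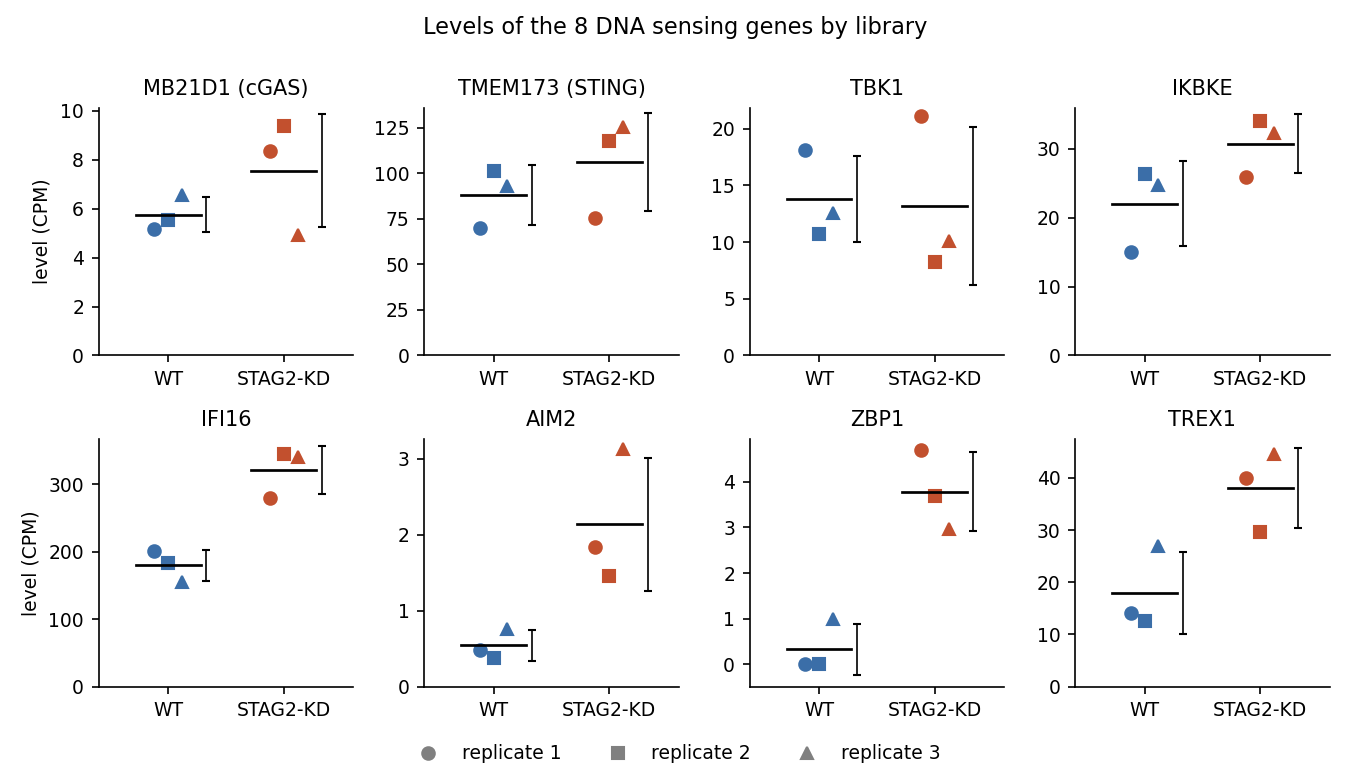
Level of each of the 8 genes in CPM on linear axes for the 3 WT (blue) and 3 STAG2-KD (orange) libraries, with marker shape for the replicate, a horizontal line at the mean and a bar for ± 1 SD. IFI16, AIM2, ZBP1 and TREX1 have all KD libraries above all WT libraries, whereas MB21D1, TMEM173, TBK1 and IKBKE overlap.

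The sensor cGAS itself was low and did not pass the test. MB21D1 (ENSG00000164430), annotated on GRCh37 chromosome 6 between 74123238 and 74162020 (minus strand), was at 5.18, 5.54 and 6.56 CPM in WT and at 8.36, 9.38 and 4.94 CPM in KD. KD replicates 1 and 2 were above all WT libraries and KD replicate 3 was below all of them. Mean levels were 5.76 ± 0.72 CPM for WT against 7.56 ± 2.32 CPM for KD (SD, n = 3 each). This gave a log2 fold change of 0.39 (95% interval −0.46 to 1.25, edgeR adjusted p = 0.742), so that a 2-fold increase and a small decrease both lie within the interval. Within pairs of the same replicate number the log2 ratios were 0.69, 0.76 and −0.41. DDX43, whose exons cover 180 exonic bases of MB21D1 on the opposite strand, was at 1.92 to 4.30 CPM in WT and 3.49 to 6.64 CPM in KD.

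IFI16, a nuclear and cytosolic DNA binder, was the most abundant of the 8 genes and the one nearest to the threshold. IFI16 (ENSG00000163565) occupies GRCh37 chromosome 1 between 158969758 and 159024945 (plus strand). Its WT libraries gave 201, 184 and 156 CPM and its KD libraries 280.0, 345 and 340.2 CPM, so that the lowest KD library stood well above the highest WT library. The means were 180.2 ± 23.0 and 322 ± 36.1 CPM (SD, n = 3 each), a 1.79-fold difference. Without the block this was a log2 fold change of 0.84 (SE 0.20) at an edgeR adjusted p = 0.0599, and the blocked fit gave 0.84 (SE 0.16) at an edgeR adjusted p = 0.00966. The pairwise log2 ratios were 0.48, 0.91 and 1.13 for replicates 1 to 3, the pair of replicate 1 having the smallest difference. With each library left out in turn, IFI16 passed without WT replicate 1 (edgeR adjusted p = 0.0415) and in none of the other 5 fits, whose adjusted p reached 0.296 without KD replicate 3. Without replicate 1 of both conditions, an alternative chosen after seeing the data, its log2 fold change was 1.02 (edgeR adjusted p = 0.013).

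AIM2 (ENSG00000163568) is the next gene of the PYHIN cluster, annotated on GRCh37 chromosome 1 between 159031389 and 159157633 (minus strand), so that the annotated 3′ ends of IFI16 and AIM2 face each other across 6.44 kb. Its levels were far lower. AIM2 was at 0.484, 0.377 and 0.765 CPM in WT, from 13, 13 and 21 counts, and at 1.84, 1.46 and 3.12 CPM in KD, from 59, 43 and 102 counts. The KD libraries were all above the WT libraries, and the pairwise log2 ratios of 1.92, 1.95 and 2.03 lay close together. Its log2 fold change was 1.97 with a 95% interval of −0.01 to 3.96, and the adjusted p was 0.339 from edgeR. With the filter of at least 10 counts in every library the edgeR adjusted p was 0.104. The difference was thus not significant in either fit, and the part of the small counts in this was not tested. Of the other PYHIN genes of the cluster, MNDA was listed at 0 in all libraries, and PYHIN1 was between 0.145 and 1.39 CPM in WT and between 0.372 and 0.758 CPM in KD.

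ZBP1 (ENSG00000124256), annotated on GRCh37 chromosome 20 between 56178902 and 56195632 (minus strand), was low in every library. It was listed at 0 in WT replicates 1 and 2 and had 27.0 counts (0.983 CPM) in WT replicate 3. In KD it had 151, 109 and 96.8 counts, or 4.69, 3.69 and 2.96 CPM. The lowest KD library was above the only WT library with any count. Its log2 fold change was 3.53 (95% interval 0.17 to 6.88, edgeR adjusted p = 0.309) and 5.71 in the blocked fit (edgeR adjusted p = 0.0757), an estimate that depends on how counts of 0 are treated. ZBP1 passed with all 6 libraries when no filter on low counts was used (edgeR adjusted p = 0.0248). In that fit 1103 of 24277 tested genes were called. ZBP1 also passed without WT replicate 3, the only WT library with any count (edgeR adjusted p = 0.0278). The mean KD level was 3.78 CPM, beside floors of 0.112 and 0.087 CPM in WT replicates 1 and 2. With all 6 libraries the mean was 11.5-fold higher in KD. In 4 of the 6 libraries, all those with any count, the count of ZBP1 was not whole, as happens where RSEM divides reads between places in the genome. The same held in 5 of 6 libraries for MB21D1, and in 2 of 6 each for TMEM173 and TREX1.

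The adaptor STING was well expressed in both conditions. TMEM173 (ENSG00000184584), annotated on GRCh37 chromosome 5 between 138855118 and 138862520 (minus strand), was at 69.9, 101 and 93.1 CPM in WT and at 75.5, 118 and 125 CPM in KD. Each KD library was above the WT library of the same number, by 0.11, 0.21 and 0.43 on the log2 scale, but the 2 conditions overlapped. The estimate was a log2 fold change of 0.27 (95% interval −0.28 to 0.81, edgeR adjusted p = 0.718). With the replicate block the interval narrowed to −0.08 to 0.58 (edgeR adjusted p = 0.371), which leaves a change of 2-fold in either direction outside it.

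Neither of the 2 kinases passed the test. TBK1 (ENSG00000183735), annotated on GRCh37 chromosome 12 between 64845870 and 64895894 (plus strand), was at 18.1, 10.7 and 12.6 CPM in WT and at 21.1, 8.26 and 10.1 CPM in KD. In both conditions replicate 1 was the highest, and the difference between replicate 1 and the others exceeded that between the conditions. For TBK1 the log2 fold change was −0.07 (95% interval −0.96 to 0.82, edgeR adjusted p = 0.968), and −0.16 with the replicate block (95% interval −0.71 to 0.40). IKBKE (ENSG00000143466), the inducible relative of TBK1, is annotated on GRCh37 chromosome 1 between 206643819 and 206670222 (plus strand). Its levels were 15.0, 26.4 and 24.7 CPM in WT and 25.9, 34.0 and 32.3 CPM in KD. Only WT replicate 2, at 26.4 CPM, overlapped the KD libraries, and it did so with KD replicate 1 alone. For IKBKE the fit gave a log2 fold change of 0.48 (95% interval −0.12 to 1.08, edgeR adjusted p = 0.471), and the 3 pairwise log2 ratios were 0.79, 0.36 and 0.39. With the replicate block it was 0.51, and the unadjusted interval lay above 0 (95% interval 0.08 to 0.94). IKBKE did not pass in this fit either (edgeR adjusted p = 0.141).

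TREX1, the exonuclease that removes cytosolic DNA, was higher in each KD library than in each WT library. TREX1 (ENSG00000213689) occupies GRCh37 chromosome 3 between 48507210 and 48509044 (plus strand). Its levels were 14.1, 12.6 and 26.9 CPM in WT and 40.0, 29.7 and 44.6 CPM in KD. WT replicate 3 came close to KD replicate 2, and the other WT libraries were clearly lower. The means were 17.9 ± 7.87 and 38.1 ± 7.62 CPM (SD, n = 3 each), a 2.13-fold difference. Without the block the log2 fold change was 1.09 (SE 0.32) at an edgeR adjusted p = 0.133, and the blocked fit gave 1.16 (SE 0.21) at an edgeR adjusted p = 0.0074. All 1448 merged exon bases of TREX1 also belong to exons of ATRIP on the same strand, so that the division of reads between both genes is an estimate. ATRIP, which works with the checkpoint kinase ATR, ranged from 9.94 to 17.4 CPM in WT and from 11.9 to 14.5 CPM in KD (log2 fold change −0.01, edgeR adjusted p = 0.994). With the counts of TREX1 and ATRIP added together, the log2 fold change was 0.71 (edgeR adjusted p = 0.244), and 0.76 in the blocked fit (edgeR adjusted p = 0.0316), an alternative chosen after seeing the data.

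**Figure D2:**
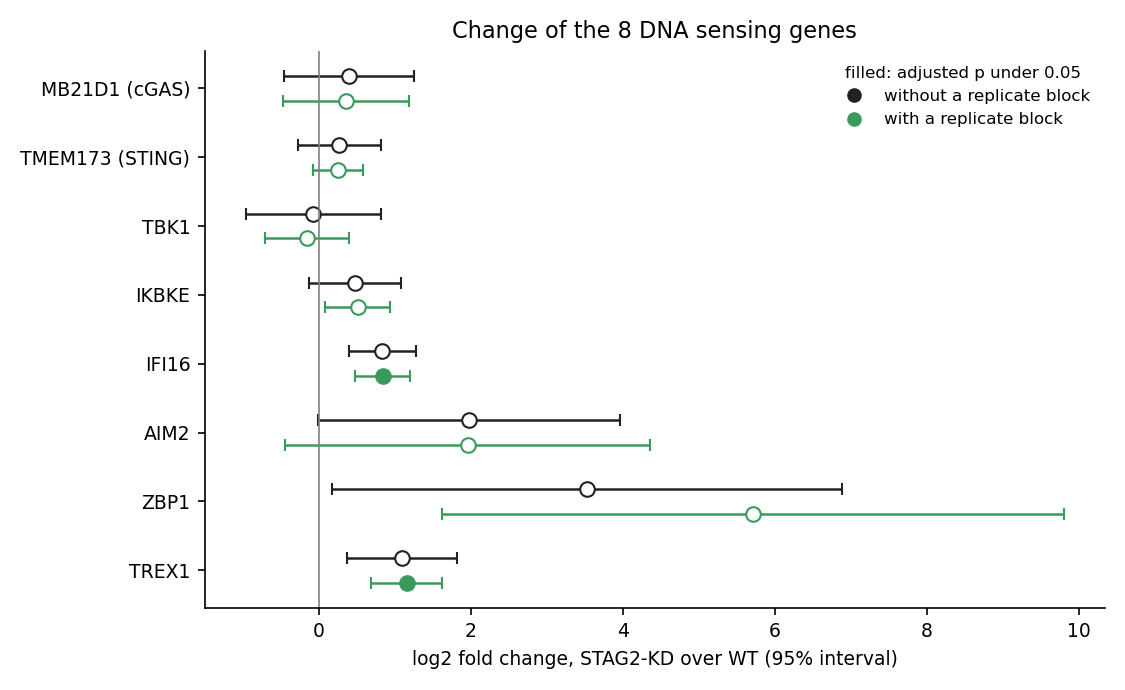
Log2 fold change of KD over WT for each gene with its 95% interval, not adjusted for multiple testing, from edgeR without (black) and with (green) a replicate block; filled points have an adjusted p under 0.05. Only IFI16 (0.84) and TREX1 (1.16) are filled, both in the fit with the block, and the widest intervals are those of AIM2 and ZBP1.

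The levels of different genes were compared only after division by length, as counts per kilobase of merged exons, scaled to the same total in each library (TPM). In WT the order of the medians was IFI16 at 119.6 TPM, TMEM173 at 59.0, TREX1 at 32.9, IKBKE at 19.8, MB21D1 at 4.57, TBK1 at 2.60, AIM2 at 0.254 and ZBP1 at 0. Among neighbours in this order, the ranges of TMEM173 (49.2 to 72.8 TPM) and TREX1 (29.9 to 56.5 TPM) overlapped, as did those of AIM2 and ZBP1. The others did not, although MB21D1 and TBK1 were separated by less than 0.1 TPM. In KD the medians were 211 TPM for IFI16, 92.6 for TREX1, 79.5 for TMEM173, 28.4 for IKBKE, 6.72 for MB21D1, 2.28 for TBK1, 2.21 for ZBP1 and 0.958 for AIM2. There TREX1 overlapped TMEM173, MB21D1 overlapped TBK1, and TBK1 overlapped ZBP1. With the longest transcript as the length, TMEM173 was above TREX1 in KD too (85.4 and 81.5 TPM) and TBK1 was above MB21D1 in WT (4.58 and 4.23 TPM), so the order within these pairs depends on the length used. In both conditions every library had a higher TPM for the adaptor STING than for the sensor cGAS.

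**Figure D3:**
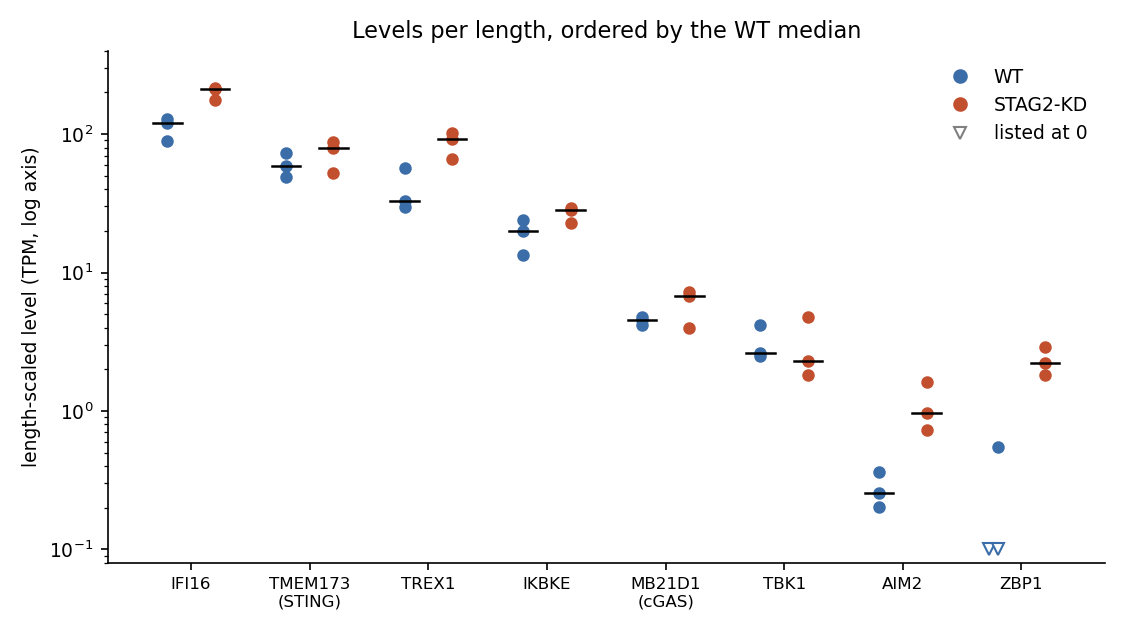
Length-scaled level (TPM, log axis) of each gene in the 3 WT (blue) and 3 KD (orange) libraries, in the order of the WT medians, with a line at the median and open triangles for libraries listed at 0. Levels span from 0.202 TPM for AIM2 to 128 TPM for IFI16 in the WT libraries above 0.

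For AIM2, TREX1 and IFI16, 3 of the 4 genes whose conditions did not overlap, the stretch around a RefSeq start is shown. The reason is that interferon-stimulated genes often carry an interferon-stimulated response element (ISRE) near a start. Sequences are RefSeq windows on GRCh38.p14, from 250 bases before to 50 bases after a start, written 5′ to 3′ on the strand of the gene. These starts were not matched to the ends of the GRCh37 gene ranges given above and can lie inside them. RefSeq windows were matched for TBK1, IKBKE, IFI16 (2 starts), AIM2 and TREX1. They were searched for the ISRE core (GAAA, any 2 bases, GAAA) and for the GAS core TTCNNNGAA of STAT binding sites, on both strands. Capitals mark an ISRE match.
AIM2 (chr1:159076717-159077016, minus strand): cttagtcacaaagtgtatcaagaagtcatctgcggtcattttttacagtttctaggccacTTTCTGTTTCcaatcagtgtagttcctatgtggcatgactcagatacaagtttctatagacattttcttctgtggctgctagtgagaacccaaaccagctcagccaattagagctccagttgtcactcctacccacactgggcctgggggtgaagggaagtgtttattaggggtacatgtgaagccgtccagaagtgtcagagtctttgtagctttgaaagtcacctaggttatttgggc
TREX1 (chr3:48465580-48465879, plus strand): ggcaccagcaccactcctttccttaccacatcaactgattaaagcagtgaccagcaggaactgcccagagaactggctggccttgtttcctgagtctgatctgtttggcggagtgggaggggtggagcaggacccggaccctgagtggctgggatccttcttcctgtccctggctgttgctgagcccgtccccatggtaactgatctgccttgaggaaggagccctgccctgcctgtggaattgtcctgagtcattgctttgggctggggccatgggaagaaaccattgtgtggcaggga
IFI16, first start (chr1:159008741-159009040, plus strand): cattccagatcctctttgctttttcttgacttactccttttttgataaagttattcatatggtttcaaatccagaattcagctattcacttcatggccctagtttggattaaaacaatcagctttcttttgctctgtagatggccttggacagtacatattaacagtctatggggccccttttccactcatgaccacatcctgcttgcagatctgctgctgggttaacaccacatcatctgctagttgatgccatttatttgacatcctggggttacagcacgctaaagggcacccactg
IFI16, other start (chr1:159009657-159009956, plus strand): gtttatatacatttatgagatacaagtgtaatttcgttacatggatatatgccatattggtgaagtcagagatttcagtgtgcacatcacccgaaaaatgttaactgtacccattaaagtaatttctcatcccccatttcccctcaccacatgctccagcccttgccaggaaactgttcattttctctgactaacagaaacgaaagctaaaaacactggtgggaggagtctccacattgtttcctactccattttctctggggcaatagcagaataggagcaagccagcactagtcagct
The ISRE core was found once, as TTTCTGTTTC in the AIM2 window, which is a match on the opposite strand. Its first base lies at −190 relative to the RefSeq start. The ISRE core is held by 3.57% of the 35116 RefSeq windows. The GAS core was found in none of the 6 windows and is held by 7.66% of all windows. A match describes letters only, and the absence of these letters in 300 bases says nothing about sites elsewhere.

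The rest of the pathway was read from 6 lists with 87 genes, of which 77 were tested. In these, 7 genes rose and 3 fell at an adjusted p under 0.05 from edgeR, and 16 rose and 8 fell with the replicate block. In all tested genes 1.75% rose and 0.839% fell, and with the block 5.1% and 4.42%. The median log2 fold change over the 77 genes was 0.10.

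Among 20 tested sensors and sensor partners, 3 fell and 1 rose. The falls were in PRKDC, the catalytic subunit of DNA-PK, and in HMGB1 and HMGB2, chromatin proteins that bend DNA and help present it to sensors. HMGB2 was at 77.7, 67.2 and 69.9 CPM in WT and at 17.6, 30.7 and 19.6 CPM in KD (log2 fold change −1.66, edgeR adjusted p = 0.00832). PRKDC was at 368, 257 and 237 CPM in WT and at 114, 126 and 133 CPM in KD (log2 fold change −1.21, edgeR adjusted p = 0.0209). The log2 fold change of HMGB1 was −0.94 (edgeR adjusted p = 0.0238), and its WT libraries, from 273 to 291 CPM, were all far above its KD libraries, from 141 to 158 CPM. TRIM14, which protects cGAS from degradation, rose from 22.1, 40.9 and 43.5 CPM to 81.2, 139.9 and 134 CPM (log2 fold change 1.74, edgeR adjusted p = 0.0188).

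Of 13 tested nucleic acid clearance enzymes, 4 rose and 0 fell, and with the block 6 rose and 1 fell. SAMHD1, which depletes the nucleotide pool and trims stalled forks, was at 11.1, 22.2 and 13.0 CPM in WT and at 105, 102 and 160.1 CPM in KD (log2 fold change 2.99, edgeR adjusted p = 0.0011). The others that rose were DNASE1L1, a relative of DNase I (1.09, edgeR adjusted p = 0.0146), ADAR, which edits double-stranded RNA (1.45, adjusted p = 0.00836), and PNPT1, which degrades mitochondrial RNA (1.48, adjusted p = 0.0416), so that ADAR and PNPT1 act on RNA and not on DNA. RNASEH2A, a subunit of RNase H2, was the 1 gene that fell with the block (log2 fold change −0.59, edgeR adjusted p = 0.0355), and was named after its values were seen.

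Of 19 tested genes of STING trafficking and turnover, 1 rose and 0 fell, and with the block 2 rose and 1 fell. The gene that rose in both fits was NPC1, the lysosomal cholesterol exporter that also delivers STING for degradation, at 181, 161 and 139 CPM in WT and 637, 553 and 469.8 CPM in KD (log2 fold change 1.79, edgeR adjusted p = 0.00183). With the block NLRX1, a mitochondrial NOD-like receptor, also rose (log2 fold change 1.08, edgeR adjusted p = 0.0189), and INSIG1, a sterol-regulated protein of the endoplasmic reticulum, fell (−0.92, edgeR adjusted p = 0.0261); both were named after their values were seen. SURF4, which returns STING to the endoplasmic reticulum, had a log2 fold change of −0.01 (edgeR adjusted p = 0.991). None of 7 tested genes of cGAMP handling passed the test, with 1 at an unadjusted p under 0.05, and LRRC8A, a subunit of the channel that passes cGAMP, passed with the block alone (log2 fold change 0.63, edgeR adjusted p = 0.048). ABCC1, a cGAMP exporter, had a log2 fold change of 0.23 (edgeR adjusted p = 0.822).

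In the list of kinase adaptors and outputs, 1 of 8 tested genes rose and 0 fell, and with the block 2 rose and 0 fell. IRF7, which amplifies interferon transcription, rose from 14.2, 20.6 and 19.4 CPM to 187, 181 and 222 CPM (log2 fold change 3.45, edgeR adjusted p = 5.2e-05), whereas IRF3, the direct substrate of TBK1, was at 96.1, 141 and 164.9 CPM in WT and 136.9, 132 and 158 CPM in KD (log2 fold change 0.09, edgeR adjusted p = 0.92). The 4 outputs of the list, named after their values were seen, gave unlike values. IFNB1 and IL6 were listed at 0 in all 6 libraries, and CXCL10 had counts only in KD replicate 3, at 0.306 CPM. The chemokine CCL5 was at 4.45, 24.1 and 23.1 CPM in WT and at 78.4, 57.0 and 53.7 CPM in KD, without overlap (log2 fold change 1.87, edgeR adjusted p = 0.106), and rose in the blocked fit (2.09, edgeR adjusted p = 0.0243). Among 10 tested effectors of AIM2 and ZBP1, none passed without the block, though 7 had an unadjusted p under 0.05, beside 14.8% of all tested genes, and 4 rose and 1 fell with it. The fall was in PYCARD, the inflammasome adaptor ASC (log2 fold change −1.28, edgeR adjusted p = 0.0288 with the block), and the rises were in IL1B, NLRP3, RIPK1 and MLKL; these 5 were named after their values were seen. GSDMD (log2 fold change 0.00) and FADD (0.45), the most abundant of the list, did not pass in either fit. RIPK3, the kinase between ZBP1 and MLKL, was listed at 0 in all libraries.

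**Figure D4:**
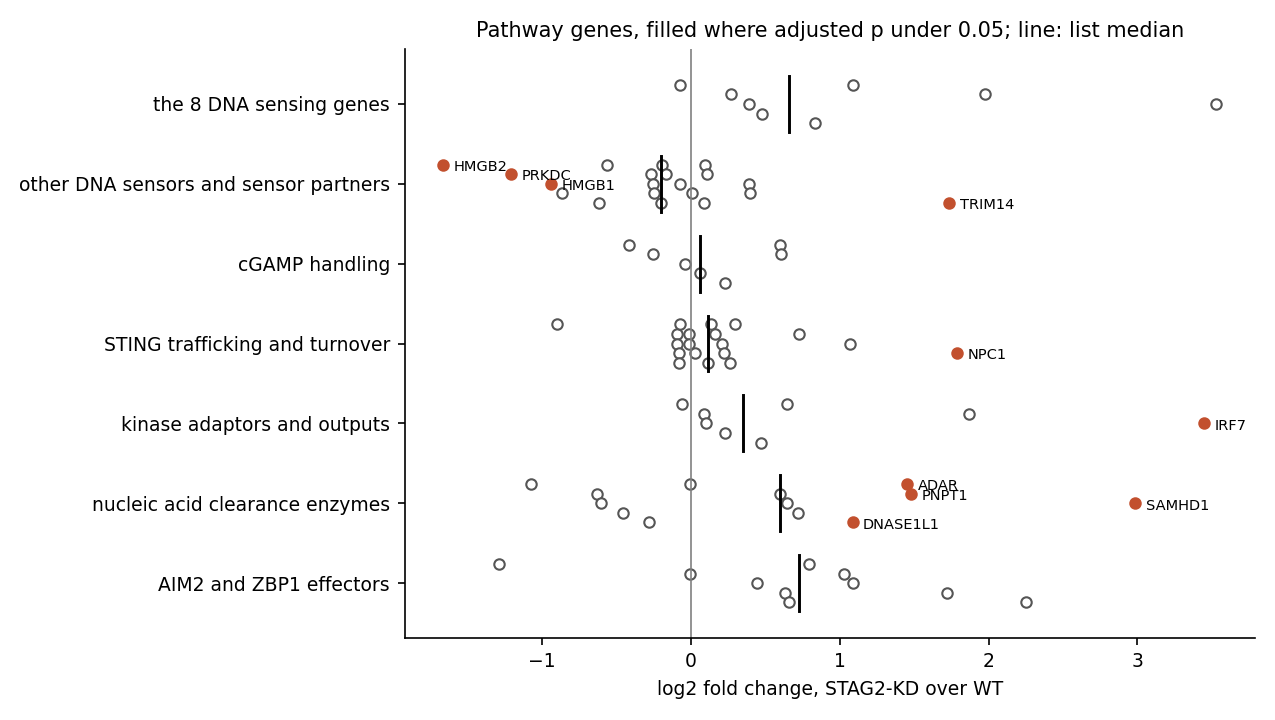
Log2 fold change of KD over WT for each tested gene of the 8 DNA sensing genes and the 6 pathway lists, with filled points for an adjusted p under 0.05 from edgeR without the block, and a line at the median of each list. None of the 8 genes is filled, and 7 filled points lie to the right and 3 to the left of 0 in the lists.

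The nearest profiles were sought among 13534 other tested genes with a mean of at least 1 CPM, as the root mean square difference of centred log2 CPM over the 6 libraries. For AIM2 they were TNFSF10, which encodes TRAIL (0.219), and SP100 (0.272), and for ZBP1 PDE2A (0.349) and KRT6B (0.655). IFI16 was nearest to DCAF5 (0.053) and CDK18 (0.057), and TREX1 to RP11-384L8.1 (0.183) and CHIC2 (0.185). Those of TMEM173 were SCMH1 (0.037) and ARAP1 (0.04), of IKBKE CLPTM1 (0.03) and CHMP7 (0.04), of TBK1 SNRK (0.106) and SOCS6 (0.113), and of MB21D1 RPL36A (0.107) and CCDC61 (0.115). These distances describe the 6 libraries only.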

How the data were processed

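RNA from 6 cultures of M14 cells (3 WT, 3 STAG2-KD, after 5 days) was selected for poly(A), made into strand-specific libraries and sequenced in 50-base single reads. Alignment by the authors used STAR 2.7.0f on hg19, and the deposited values are expected counts per gene from RSEM 1.3.0, unscaled and unfiltered. Reads with several possible origins are shared out by RSEM, which moves the values of overlapping genes, and the strand setting is not given in the sources used here. Expected counts were rounded, filtered by filterByExpr (15605 genes), scaled by TMM and tested with edgeR 4.0.16 (quasi-likelihood test, Benjamini-Hochberg adjustment over all tested genes, R 4.3.3). The methods were tested on simulated counts with the same relative spread for all genes and no replicate effect. This check therefore cannot show how the block behaves in these data. Alternatives used DESeq2 1.42.0, limma 3.58.1, other filters and scalings, a replicate block, and fewer libraries. Deviations from condition means correlated with r of 0.524, 0.365 and 0.301 for replicates 1 to 3 over 10568 genes, from the data and not from the labels, against −0.43 to 0.234 between other numbers. Positions and lengths came from GENCODE v44lift37 (GRCh37); IKBKE was matched by symbol. The genes, the lists, and the rule naming list genes that passed, the 2 most abundant where fewer than 2 passed, and the 2 nearest profiles per gene were chosen with earlier results of these data known.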

Additional observations from a re-analysis of the deposited data

How the results depend on the processing

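Without the block the count of the 8 genes called was 0. It was 2 with the replicate block and with DESeq2, 1 with limma-voom, 3 without a filter on low counts (IFI16, ZBP1 and TREX1), 1 with at least 10 counts in every library, which leaves ZBP1 out, and 1 without replicate 1 of both conditions, an alternative chosen after seeing the data. With each library left out in turn it ran from 0 to 1. Upper-quartile scaling and unrounded counts left it at 0. An adjusted p under 0.01 and a log2 fold change of at least 1 only narrow the same fit, so that they could give nothing but 0. The sign held in all alternatives for 7 genes. TBK1 ran from −0.59 to 0.17 with a library left out, turning to 0.16 without WT replicate 1, 0.17 without STAG2-KD replicate 2 and 0.06 without STAG2-KD replicate 3. Of the pathway genes, 10 were called, 24 with the replicate block, 17 with DESeq2, 5 at an adjusted p under 0.01, and from 3 to 11 with a library left out (3 without STAG2-KD replicate 3). Of all 15605 tested genes, 404 were called, 1486 with the replicate block, 979 with DESeq2 and 137 at an adjusted p under 0.01. Other fits tested other numbers of genes. Calls were 1103 of 24277 without a filter, 452 of 12743 with at least 10 counts in every library, and 757 of 15991 without replicate 1 of both conditions. They ran from 121 of 16515 to 531 of 16509 when a single library was dropped. STAG2 had an edgeR adjusted p of 1.2e-10 without a filter, against 0.0342 with it. The 3 calls among the 8 genes without a filter are therefore not directly comparable with the 0 in the filtered fit. With a library left out STAG2 had log2 fold changes from −2.63 to −1.68, and its edgeR adjusted p reached 0.168. The cause of these differences was not tested. The counts of AIM2 and ZBP1 limit what can be said of them.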
